A study of Mus musculus with 10 samples.

Results

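The FGF and EGF family genes, 36 of 21887 protein-coding genes placed on the chromosomes of the deposited lists, were taken by name from a published gene table. They comprised 27 ligand genes (20 of the FGF family and 7 of the EGF family) and 9 receptor genes (5 FGF receptor and 4 ErbB receptor genes), and all 36 were found in the table. The material was retinal Glast+ cells of C57BL/6 mice aged 28 days after birth (P28), fixed in formaldehyde, for which the labels name no treatment or mutation. Glast, the product of Slc1a3, is a glutamate transporter that Müller glia, the main glial cells of the retina, carry. Each of 4 histone modifications was profiled in 2 experiments, Exp1 and Exp2: H3K4me3, a mark of active and poised promoters, H3K4me1, a mark of enhancers and promoter flanks, H3K27me3, the product of Polycomb repressive complex activity, and H3K9me3, which is typical of heterochromatin. The labels do not name the animals behind each experiment, so the spread between experiments may be technical.

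Fibroblast growth factors are mostly secreted proteins that bind heparan sulphate and activate receptor tyrosine kinases. EGF family ligands are made as membrane-bound precursors, are released by proteases, and activate the ErbB receptors. Both pathways run through the Ras and MAP kinase cascade. In the retina, FGFs take part in eye patterning and the onset of neurogenesis, FGF2 and EGF are commonly used to stimulate Müller glia to divide, and HB-EGF has a known part in Müller glia-dependent regeneration in zebrafish.

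The deposited lists give enriched regions, called islands, each with a position and a p-value. They hold 16761 (Exp1) and 20169 (Exp2) islands for H3K4me3, 52342 and 37200 for H3K4me1, 7743 and 4105 for H3K27me3, and 9690 and 5621 for H3K9me3. No read counts were used here, so depth is unknown. H3K27me3 and H3K9me3 were called on coarser grids (5000 and 3000 bp, against 200 bp for the H3K4 marks). Their islands were also wider, with list medians of 30 to 80 kb, against 2.4 to 3.2 kb for the H3K4 marks. A wider island more easily reaches a gene end. Whether the grid accounts for the greater width was not tested. A gene is called marked below when, in both experiments, an island reached the 1 kb on either side of the same gene end. H3K4me3 lay at 6 of 7 Müller glia marker genes (not at Aqp4), against 58.6% of all protein-coding genes. It lay at 5 of 7 rod, 4 of 6 amacrine and ganglion cell, 0 of 4 microglia and 1 of 4 endothelial marker genes. H3K27me3 lay at 2 of 7 Müller glia (Rlbp1 and Sox9, both with H3K4me3) and 0 of 7 rod marker genes. It lay at 5 of 6 amacrine and ganglion cell, 1 of 4 microglia and 0 of 4 endothelial marker genes, against 23.3% of all genes. Which cell type carries the mark at an FGF or EGF family gene was not tested, and where H3K4me3 and H3K27me3 are found together they need not lie in the same cells. The results are counts and values with no test, set beside the share of all protein-coding genes. The reason is that each mark has 2 experiments and that the members were chosen with earlier results known. A comparison of 2 against 2 experiments, which was not made here, could not give a p below 0.333 in an exact two-sided permutation test.

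Ligand genes were marked by H3K4me3 about as often as genes in general, and receptor genes without exception. H3K4me3 lay at 14 of 27 ligand genes (51.9%) and 9 of 9 receptor genes, against 58.6% of all protein-coding genes. H3K4me1 lay at 16 ligand genes (59.3%) and 9 receptor genes, against 54.6% of all genes. H3K27me3 lay at 7 ligand genes (25.9%) and 3 receptor genes (33.3%), against 23.3% of all genes. H3K4me3 and H3K27me3 at the same end, the combination called bivalent, were found at 4 ligand genes (14.8%) and 3 receptor genes (33.3%), against 5.74% of all genes. H3K9me3 lay at 1 ligand gene (3.7%) and 0 receptor genes, against 13.4% of all genes. Sorted by state, 10 ligand genes carried H3K4me3 without H3K27me3, 4 carried both, 3 carried H3K27me3 without H3K4me3, and 10 carried neither, while 6 receptor genes carried H3K4me3 without H3K27me3 and 3 carried both. Among all genes the states made up 51.9%, 5.74%, 16.6% and 24.8% in that order, and 0.937% had the marks at different ends, a state seen at 0 of the 36. The number of ligand genes with H3K27me3 was 12 (of 27) with the Exp1 lists alone, where 29.3% of all genes had the mark.

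**Figure D1:**
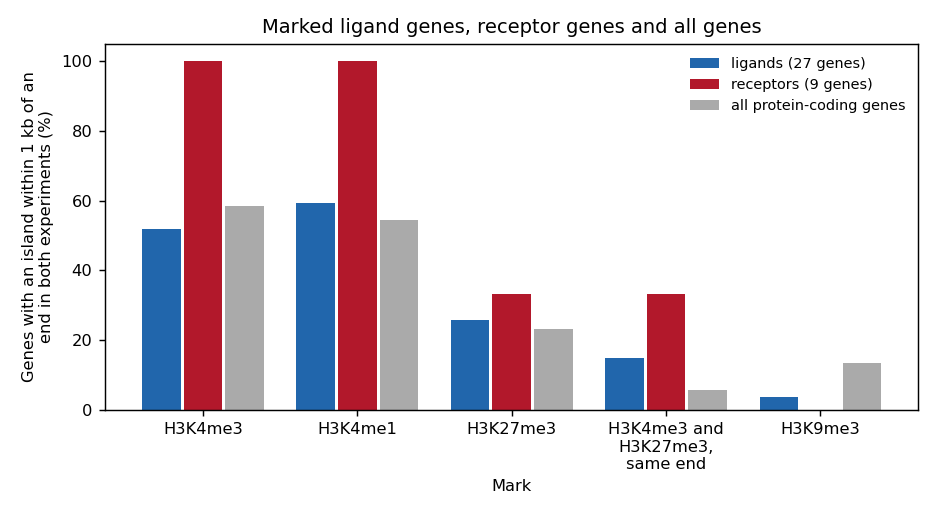
Percent of genes (vertical axis) with an island within 1 kb of a gene end in both experiments, for each mark (horizontal axis), in 27 ligand genes, 9 receptor genes and all 21887 protein-coding genes. Receptor genes reach 100% for H3K4me3 and H3K4me1, where ligand genes stand at 51.9% and 59.3%.

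**Figure D2:**
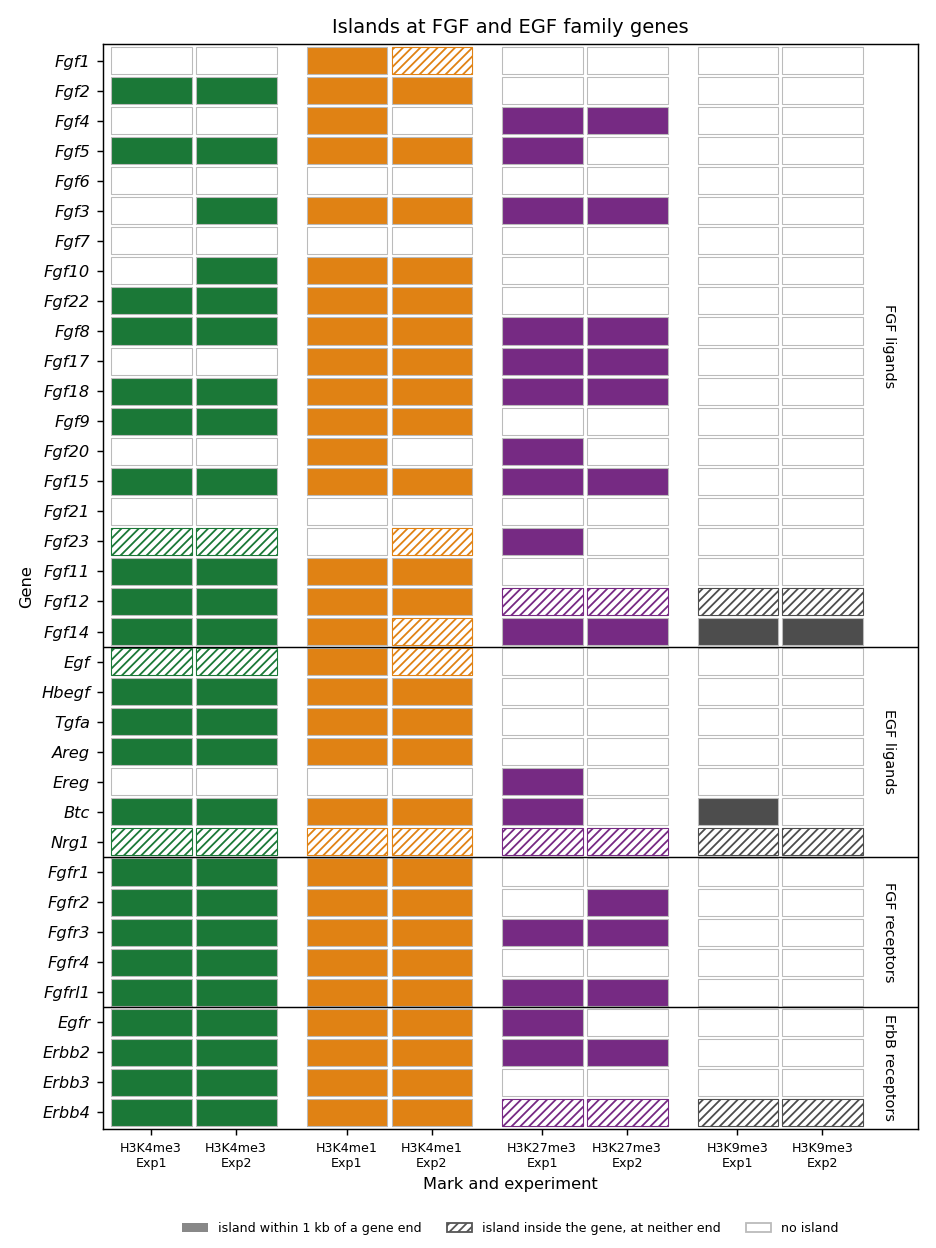
Islands of the 4 marks in Exp1 and Exp2 (columns) at the 36 genes (rows), with FGF ligands, EGF ligands, FGF receptors and ErbB receptors separated by lines. Filled boxes have an island within 1 kb of a gene end, hatched boxes have one inside the gene at neither end, and the 9 receptor rows are filled for both H3K4 marks in both experiments.

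The start of transcription could be placed for 26 of the 36 genes (19 ligand and 7 receptor genes) from RefSeq promoter entries on GRCm38.p6. Its chromosomes are those of mm10, the build of the lists. Each entry runs from 250 bases before the start to 50 after it. For ligand and for receptor genes, the promoter of the first listed gene of each state that has an entry is shown. These were printed because they differ in CpG content, a feature of the sequence that the choice of genes did not use. They are read 5′ to 3′ along the strand of the gene, and capitals mark CpG dinucleotides. Fgf2 (chr3:37348403-37348702, plus strand) carried H3K4me3 without H3K27me3, Fgf18 (chr11:33147351-33147650, minus strand) carried both, Fgf4 (chr7:144861136-144861435, plus strand) carried H3K27me3 without H3K4me3, and Fgf6 (chr6:127015292-127015591, plus strand) carried neither. Of the receptor genes, Fgfr2 (chr7:130266759-130267058, minus strand) carried H3K4me3 without H3K27me3 and Fgfr3 (chr5:33721474-33721773, plus strand) carried both. The H3K4me3 island at Fgfr2 lay within 1 kb of the start and did not overlap the sequence shown.
Fgf2: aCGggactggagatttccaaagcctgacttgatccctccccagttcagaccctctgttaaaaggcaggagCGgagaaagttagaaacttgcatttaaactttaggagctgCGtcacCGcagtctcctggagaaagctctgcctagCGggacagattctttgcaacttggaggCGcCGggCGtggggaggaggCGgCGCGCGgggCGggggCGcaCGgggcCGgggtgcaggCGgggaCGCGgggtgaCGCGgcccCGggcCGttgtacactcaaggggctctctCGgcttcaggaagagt
Fgf18: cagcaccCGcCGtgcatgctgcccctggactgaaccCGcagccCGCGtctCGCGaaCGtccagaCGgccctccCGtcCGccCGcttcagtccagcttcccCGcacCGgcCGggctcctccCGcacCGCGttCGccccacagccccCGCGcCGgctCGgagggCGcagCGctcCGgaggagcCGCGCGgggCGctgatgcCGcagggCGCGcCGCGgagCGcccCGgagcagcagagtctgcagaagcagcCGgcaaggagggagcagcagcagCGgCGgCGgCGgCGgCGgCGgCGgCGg
Fgf4: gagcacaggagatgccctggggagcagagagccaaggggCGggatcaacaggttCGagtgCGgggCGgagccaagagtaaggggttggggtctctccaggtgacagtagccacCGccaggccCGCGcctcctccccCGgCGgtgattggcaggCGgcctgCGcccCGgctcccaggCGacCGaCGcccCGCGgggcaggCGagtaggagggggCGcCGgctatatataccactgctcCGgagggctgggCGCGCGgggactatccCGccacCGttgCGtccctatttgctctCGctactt
Fgf6: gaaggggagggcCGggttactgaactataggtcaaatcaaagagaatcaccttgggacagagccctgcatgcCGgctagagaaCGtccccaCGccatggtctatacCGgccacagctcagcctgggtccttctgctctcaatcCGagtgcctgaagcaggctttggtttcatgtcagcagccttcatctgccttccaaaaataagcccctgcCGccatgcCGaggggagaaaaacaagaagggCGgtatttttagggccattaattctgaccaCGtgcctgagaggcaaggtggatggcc
Fgfr2: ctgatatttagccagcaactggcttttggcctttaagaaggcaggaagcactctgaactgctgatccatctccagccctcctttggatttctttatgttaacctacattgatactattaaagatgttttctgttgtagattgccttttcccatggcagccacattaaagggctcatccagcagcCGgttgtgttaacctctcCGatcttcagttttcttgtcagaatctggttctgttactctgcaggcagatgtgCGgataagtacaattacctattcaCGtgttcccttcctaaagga
Fgfr3: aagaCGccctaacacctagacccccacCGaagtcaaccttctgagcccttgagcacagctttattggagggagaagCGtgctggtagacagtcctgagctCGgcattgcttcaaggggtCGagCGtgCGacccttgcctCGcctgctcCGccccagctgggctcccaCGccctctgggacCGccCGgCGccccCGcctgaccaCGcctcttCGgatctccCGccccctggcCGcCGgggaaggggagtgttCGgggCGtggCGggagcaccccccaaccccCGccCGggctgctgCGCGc

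The Fgf18 promoter held 47 CpG in its 300 bases, and 1.78% of all promoters held as many. Fgf4 held 28, Fgfr3 26 and Fgf2 24, and 18.3%, 22.2% and 26.7% of all promoters held as many. Fgf6 held 10 and Fgfr2 4, and 57.2% and 75.0% of all promoters held as many. Taking the outermost entry of each of the 26 genes, the 4 with both marks held 21 to 47 CpG. The 14 with H3K4me3 alone held 4 to 29, and the 6 with neither mark 0 to 11. Egf, counted here with neither mark and 0 CpG, has an inner entry of 17 CpG with H3K4me3 in both experiments. An inner entry of Fgf12 with H3K4me3 alone held 34 CpG. Among all protein-coding genes with an entry, the medians were 19 CpG for both marks, 22 for H3K4me3 alone and 3 for neither. The 2 starts with H3K27me3 alone, Fgf3 with 14 and Fgf4 with 28 CpG, lay above the median of 2 for all such genes. The letters TATAAA, sought on both strands, were found in the promoters of Fgf5, Fgf21 and Areg, 3 of 26 (11.5%), against 13.3% of all promoters.

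The FGF1 subfamily showed H3K4me3 at 1 of 2 genes. Fgf2 encodes basic FGF, a survival factor for photoreceptors that is commonly used to stimulate Müller glia. At Fgf2 (chromosome 3, 37348477 to 37410106) the H3K4me3 island was 2.8 kb wide in Exp1 and 3 kb in Exp2, and the nearest H3K27me3 or H3K9me3 island in either experiment lay 91.5 kb away. H3K4me1 islands covered 29.1% of Fgf2 in Exp1 and 9.94% in Exp2, in 4 islands each. Fgf1, which encodes acidic FGF, had no H3K4me3 island within 62.1 kb in Exp1 or 33.7 kb in Exp2, and no H3K27me3 island within 599 kb. H3K4me1 covered 11.3% of Fgf1 in Exp1 and 2.42% in Exp2, and reached its upper end in Exp1 alone. Both genes were thus without repressive islands, and H3K4me3 was found at Fgf2 and not at Fgf1.

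The genes of the FGF8 subfamily, which pattern the embryonic brain and limbs through the mesenchymal splice forms of the FGF receptors, all lay within H3K27me3. Fgf8 (chromosome 19, 45736491 to 45742941), Fgf17 (chromosome 14, 70636203 to 70642268) and Fgf18 (chromosome 11, 33116970 to 33147400) were covered over 100% of their length in both experiments. The island over Fgf18 was 220 kb wide in Exp1 and 165 kb in Exp2, and also overlapped Npm1 and Tlx3. In the lists, 8.2% (Exp1) and 12.5% (Exp2) of the H3K27me3 islands had a lower p-value than this one. The island over Fgf8 was 75 kb wide in both experiments and reached Npm3. Over Fgf17 the width was 25 kb in Exp1 and 125 kb in Exp2, where the island overlapped 8 other genes, among them Bmp1 and Hr. In Exp2, 88.8% of islands had a lower p-value than the one over Fgf17, against 28.5% in Exp1. H3K4me3 lay in these domains at Fgf8, with islands of 1.2 and 1.6 kb, and at Fgf18, with islands of 2.4 and 3.4 kb. Fgf17 had none, its nearest being 7.2 kb away in Exp1 and 6 kb in Exp2. H3K4me1 was at an end of all 3 genes.

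Fgf3, Fgf4 and Fgf15 lie side by side on chromosome 7, with 18 kb between Fgf3 and Fgf4 and 31.3 kb between Fgf4 and Fgf15, and shared a single H3K27me3 island. It ran from 144835001 to 144900000 (65 kb) in Exp1 and from 144785001 to 144900000 (115 kb) in Exp2, and held no other protein-coding gene. Their 3 calls are therefore 1 region. Inside it the H3K4 marks differed from gene to gene. Fgf15, a gene of mouse retinal progenitors and of the endocrine subfamily, had H3K4me3 islands of 3 (Exp1) and 2 kb (Exp2). Fgf3, of the FGF7 subfamily, which acts in inner ear and early retinal development, had H3K4me1 in both experiments and H3K4me3 in Exp2 alone (2.4 kb, deposited p-value 0.000303). Fgf4, an FGF of the early embryo, had no H3K4me3 island within 29.2 kb in Exp1 or 21 kb in Exp2, and H3K4me1 in Exp1 alone. The shared domain ended inside Fgf15, 78.4% of which it covered in both experiments.

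**Figure D3:**
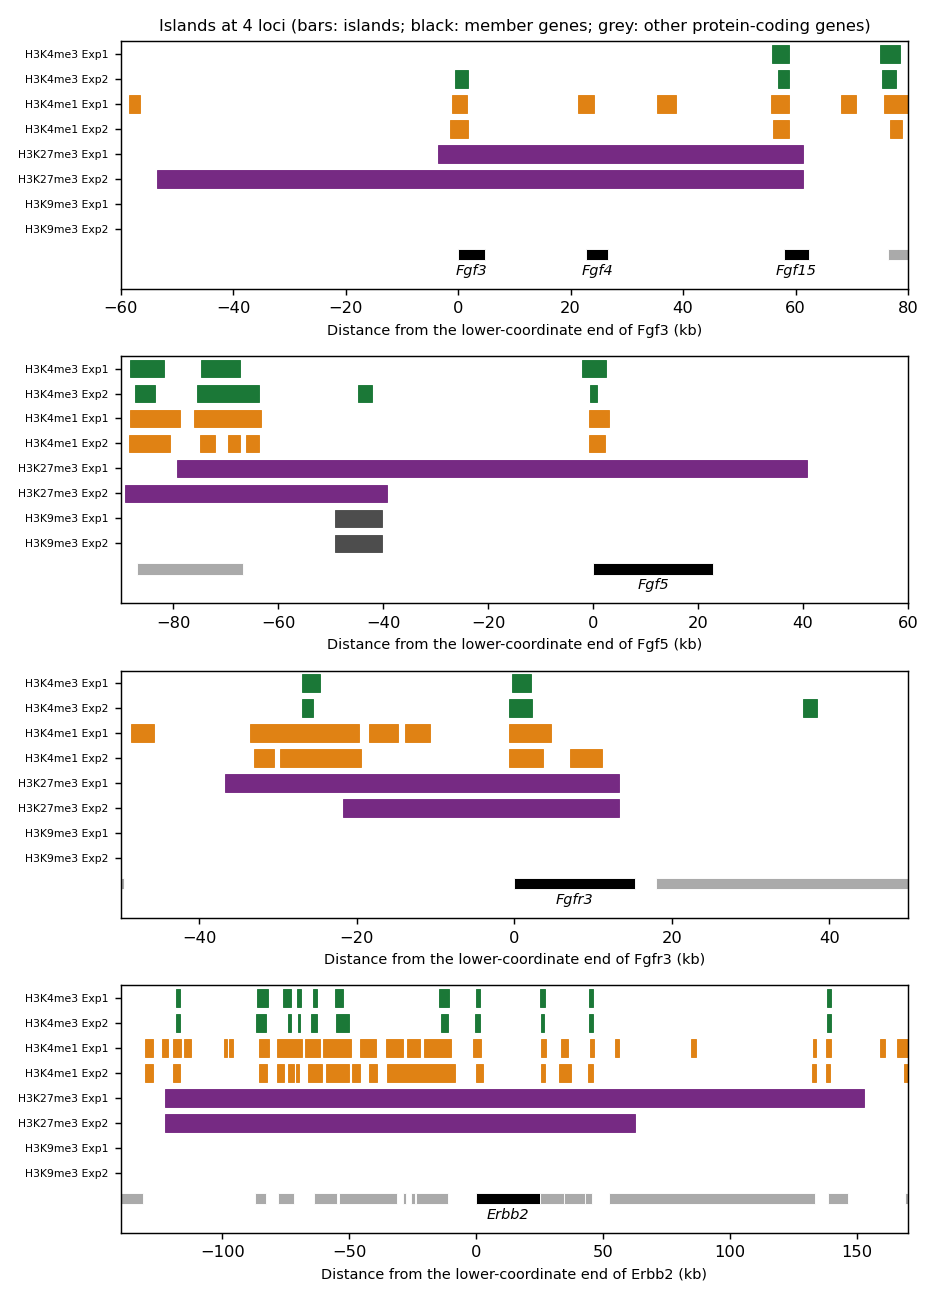
Islands (coloured bars) of each mark and experiment against distance in kb from the lower-coordinate end of Fgf3, Fgf5, Fgfr3 and Erbb2, with these genes and their neighbours of the families in black and other protein-coding genes in grey. The loci were chosen after their values were seen. At the Fgf3 locus, 1 H3K27me3 island spans Fgf3, Fgf4 and part of Fgf15 in both experiments, and at Fgf5 the Exp2 island stops 39.2 kb short of the gene.

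The other genes of the FGF4 subfamily, Fgf5 and Fgf6, differed. Fgf5, known in the mouse as a regulator of the hair cycle, had H3K4me3 islands of 4.6 (Exp1) and 1.4 kb (Exp2). H3K27me3 covered 100% of Fgf5 in Exp1, in an island of 120 kb that also reached into Prdm8, and 0% in Exp2, whose nearest island lay 39.2 kb off. The experiments therefore disagree on whether Fgf5 carries both marks. Fgf6, known from muscle, had no island of any mark within 23.9 kb in either experiment.

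The FGF7 subfamily, whose products act mainly on epithelial cells, had H3K4me3 at 1 of 4 genes. Fgf22 (chromosome 10, 79755051 to 79757795), known as an organiser of synapses in the mouse brain, had an H3K4me3 island of 1 kb in each experiment, and 0.577% of marked genes had a narrower one. Fgf10, which directs limb and lung budding, had H3K4me1 islands of 2.6 (Exp1) and 2.2 kb (Exp2). An H3K4me3 island lay at Fgf10 in Exp2 (2.6 kb, deposited p-value 7.66e-11), while in Exp1 the nearest was 326 kb away. Fgf7, the keratinocyte growth factor gene, had no H3K4me3 or H3K4me1 island within 59.8 kb in either experiment. None of these 3 genes had an H3K27me3 island at an end.

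Fgf9 (chromosome 14, 58070671 to 58112854) had the widest H3K4me3 among the 36 genes. FGF9 is a secreted factor that acts in the developing retina and at its border with the pigment epithelium. Its island was 9.8 kb wide in Exp1 and 8.8 kb in Exp2, against a median of 3.2 kb over all 12823 marked genes, of which 97.8% had narrower islands. The deposited p-value was listed as 0 in both. H3K4me1 covered 82.5% of Fgf9 in Exp1 and 28.3% in Exp2, and the nearest H3K27me3 island was 132 kb away in Exp1 and 936 kb in Exp2. Fgf20, its close relative, had no H3K4me3 island within 19.6 kb. H3K27me3 covered 100% of Fgf20 in Exp1 and 0% in Exp2.

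The remaining endocrine genes, which signal over a distance with Klotho co-receptors, had no H3K4me3 at their ends. Fgf21, a liver hormone gene, had no island of any mark within 10.7 kb in either experiment. Fgf23, a phosphate-regulating hormone made in bone, had an H3K4me3 island inside the gene, of 1.8 (Exp1) and 1 kb (Exp2), at neither end. H3K27me3 covered 77.7% of Fgf23 in Exp1 and 0% in Exp2.

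The intracellular FGFs, which are not secreted and bind voltage-gated sodium channels in neurons, all carried H3K4me3 (3 of 3). Fgf11 (chromosome 11, 69796068 to 69802944) had the second widest H3K4me3 of the 36 genes, 6 kb in Exp1 and 4.8 kb in Exp2, and the islands at its lower and upper ends also touched its neighbours Chrnb1 and Tmem102. Fgf12 and Fgf14 span 595 and 703 kb and had H3K4me3 at the upper end as well as inside. At Fgf12 the 2 inner H3K4me3 islands found in both experiments lay at other annotated starts, 307 kb and 188 to 189 kb into the gene. H3K27me3 covered 8.4% of Fgf12 in Exp1 and 1.68% in Exp2, and H3K9me3 9.57% and 6.55%, at neither end. At Fgf14 (chromosome 14, 123974441 to 124677686) an island at an annotated start 485 kb inside was 2.2 kb wide in Exp1 and 4.4 kb in Exp2. The upper end of Fgf14 was also the only end among the 36 genes with H3K9me3 in both experiments. There H3K9me3 spanned 150 kb and H3K27me3 155 kb in both, together with H3K4me3 islands of 3.4 (Exp1) and 3.2 kb (Exp2).

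**Figure D4:**
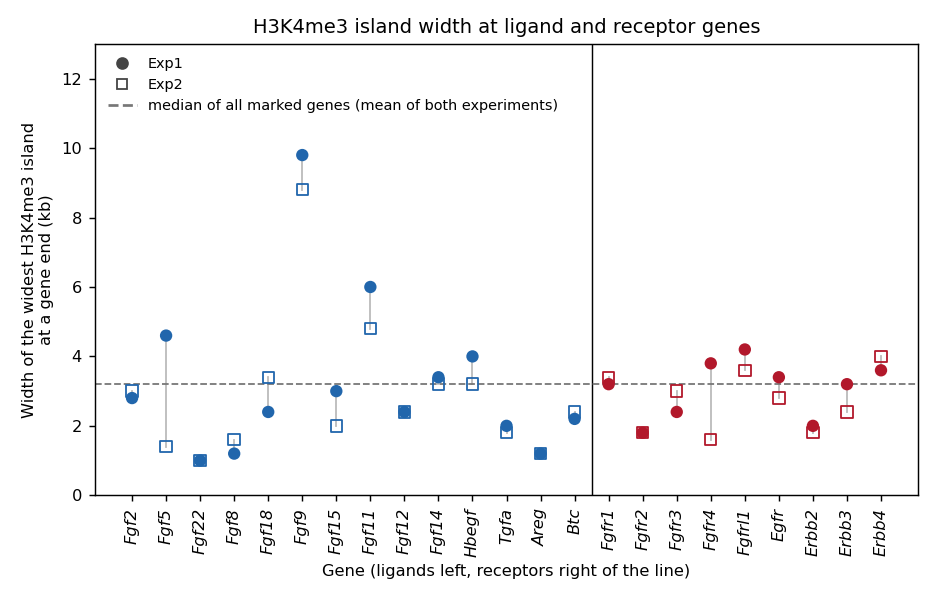
Width in kb of the widest H3K4me3 island at a gene end (vertical axis) for the 14 ligand genes and 9 receptor genes marked in both experiments, with Exp1 as filled circles and Exp2 as open squares. The dashed line is the median of all marked genes, 3.2 kb, and Fgf9 stands highest at 9.8 and 8.8 kb.

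Of the EGF family ligand genes, 4 of 7 carried H3K4me3 and 0 of 7 carried H3K27me3 at an end in both experiments. The shares of all genes were 58.6% and 23.3%. Hbegf, which encodes heparin-binding EGF-like growth factor, had H3K4me3 islands of 4 (Exp1) and 3.2 kb (Exp2), and H3K4me1 covered 64.4% and 62.6% of the gene (chromosome 18, 36504927 to 36515805). Tgfa, whose product binds EGFR, had H3K4me3 islands of 2 and 1.8 kb, and no H3K27me3 island within 310 kb. Areg, which encodes amphiregulin, had H3K4me3 islands of 1.2 kb in both experiments, and 1.65% of marked genes had narrower ones. Btc, which encodes betacellulin, had H3K4me3 islands of 2.2 and 2.4 kb, and H3K27me3 and H3K9me3 islands of 40 and 39 kb in Exp1 alone. The Btc H3K27me3 island had a deposited p-value of 0.0318, against a median of 2.72e-25 in its list. Ereg, the epiregulin gene 45.9 kb from Areg, had no H3K4me3 island within 45.4 kb and an H3K27me3 island at its lower end in Exp1 alone.

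Egf and Nrg1 had no H3K4me3 at their outer ends but had it inside. At Egf (chromosome 3, 129677574 to 129755322), the island lay at an annotated start 30.2 kb inside the gene and was 1.8 kb wide in Exp1 and 2.2 kb in Exp2, with deposited p-values of 5.62e-176 and 9.39e-179. A further island of 3.2 kb inside Egf, with a deposited p-value of 7.56e-05, was found in Exp1 alone. The outer start of Egf, whose promoter entry held 0 CpG, had none. Nrg1 encodes neuregulin 1, a ligand of ERBB3 and ERBB4, and spans 1080 kb (chromosome 8, 31807452 to 32891609). It held 3 H3K4me3 islands in Exp1 and 4 in Exp2, of which 3 were found in both. H3K27me3 covered 8.3% of Nrg1 in Exp1 and 6.92% in Exp2, and H3K9me3 5.81% and 3.32%, at neither end. Counted over the whole gene, H3K4me3 lay in 17 of 27 ligand genes (63.0%) and 9 of 9 receptor genes, against 62.6% of all genes. The 3 ligand genes gained in this way were Fgf23, Egf and Nrg1. Counted likewise, H3K4me1 lay in 20 ligand genes and 9 receptor genes (61.0% of all genes), H3K27me3 in 9 and 4 (24.2% of all genes) and H3K9me3 in 3 and 1 (16.1% of all genes).

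All 5 FGF receptor genes carried H3K4me3 and H3K4me1, and differed in H3K27me3. Fgfr1 (chromosome 8, 25518759 to 25575718) encodes the receptor that is broadly expressed in neural tissue. It had H3K4me3 islands of 3.2 (Exp1) and 3.4 kb (Exp2), and no H3K27me3 island within 219 kb. Fgfr2 had H3K4me3 islands of 1.8 kb in both experiments, and an H3K27me3 island of 130 kb covering 25.7% of the gene in Exp2 alone. Fgfr3 (chromosome 5, 33721724 to 33737068), a receptor gene expressed by astroglia and neural progenitors, had H3K4me3 islands of 2.4 and 3 kb within H3K27me3 islands of 50 and 35 kb that covered 86.5% of the gene in both. The Fgfr3 H3K27me3 island was among the weaker ones of Exp1, where 91.0% of islands had a lower p-value, against 51.9% in Exp2. Fgfr4 had H3K4me3 islands of 3.8 and 1.6 kb, and 94.6% (Exp1) and 75.4% (Exp2) of H3K4me3 islands had a lower p-value. Fgfrl1, which encodes a receptor without a tyrosine kinase domain, had H3K4me3 islands of 4.2 and 3.6 kb. An H3K27me3 island of 40 kb, shared with Idua, Slc26a1 and Dgkq, ended just inside Fgfrl1 and covered 6.07% of it in both experiments.

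All 4 ErbB receptor genes carried H3K4me3 and H3K4me1, and 1 carried H3K27me3 in both experiments. Egfr (chromosome 11, 16752203 to 16913907), the receptor for EGF, TGF-alpha, amphiregulin and HB-EGF, had H3K4me3 islands of 3.4 (Exp1) and 2.8 kb (Exp2). An H3K27me3 island reached the start of Egfr in Exp1 alone, covered 1.73% of the gene and had a deposited p-value of 0.00729. H3K4me1 covered 18.9% of Egfr in 9 islands in Exp1 and 1.98% in 2 islands in Exp2. Erbb2 (chromosome 11, 98412484 to 98437716), which encodes the partner receptor with no known ligand of its own, was covered by H3K27me3 over 100% of its length. That domain was 275 kb wide in Exp1 and 185 kb in Exp2. It overlapped 10 other genes in both, among them the neuronal transcription factor gene Neurod2, Ppp1r1b and Grb7. H3K4me3 lay at the start of Erbb2 (1.6 and 1.8 kb) and at its other end, where the island (2 and 1.4 kb) touched Mien1. Erbb3, whose kinase is weakly active and which binds neuregulins, had H3K4me3 at both ends, of which the lower was shared with Pa2g4 and had a deposited p-value listed as 0. Erbb4 (chromosome 1, 68031884 to 69108576), another neuregulin receptor gene, had H3K4me3 islands of 3.6 and 4 kb at its upper end. H3K27me3 covered 11.6% of Erbb4 in Exp1 and 4.18% in Exp2, and H3K9me3 13.9% and 7.8%, at neither end.

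Ligand and receptor genes lay mostly inside H3K27me3 about as often as genes in general. H3K27me3 covered at least 50% of 6 of 27 ligand genes (22.2%) and 2 of 9 receptor genes (22.2%) in both experiments, against 19.8% of all genes. The 6 were Fgf3, Fgf4, Fgf8, Fgf15, Fgf17 and Fgf18, and the receptor genes were Fgfr3 and Erbb2. The H3K27me3 islands at gene ends had a median width of 90 kb at the 7 ligand genes and 42.5 kb at the 3 receptor genes, against 260 kb at all marked genes. These medians are over genes, so an island counts once for each gene that it marks. Over the islands of the lists, the median width was 50 kb in Exp1 and 80 kb in Exp2. H3K9me3 covered at least 50% of 0 ligand and 0 receptor genes in both experiments, against 11.8% of all genes. H3K4me1 covered at least 50% of Fgf11 and Hbegf among the ligand genes (7.41%) and of 0 receptor genes, against 12.4% of all genes. H3K4me3 covered as much of 0 genes of the families in both experiments, against 5.37% of all genes.

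**Figure D5:**
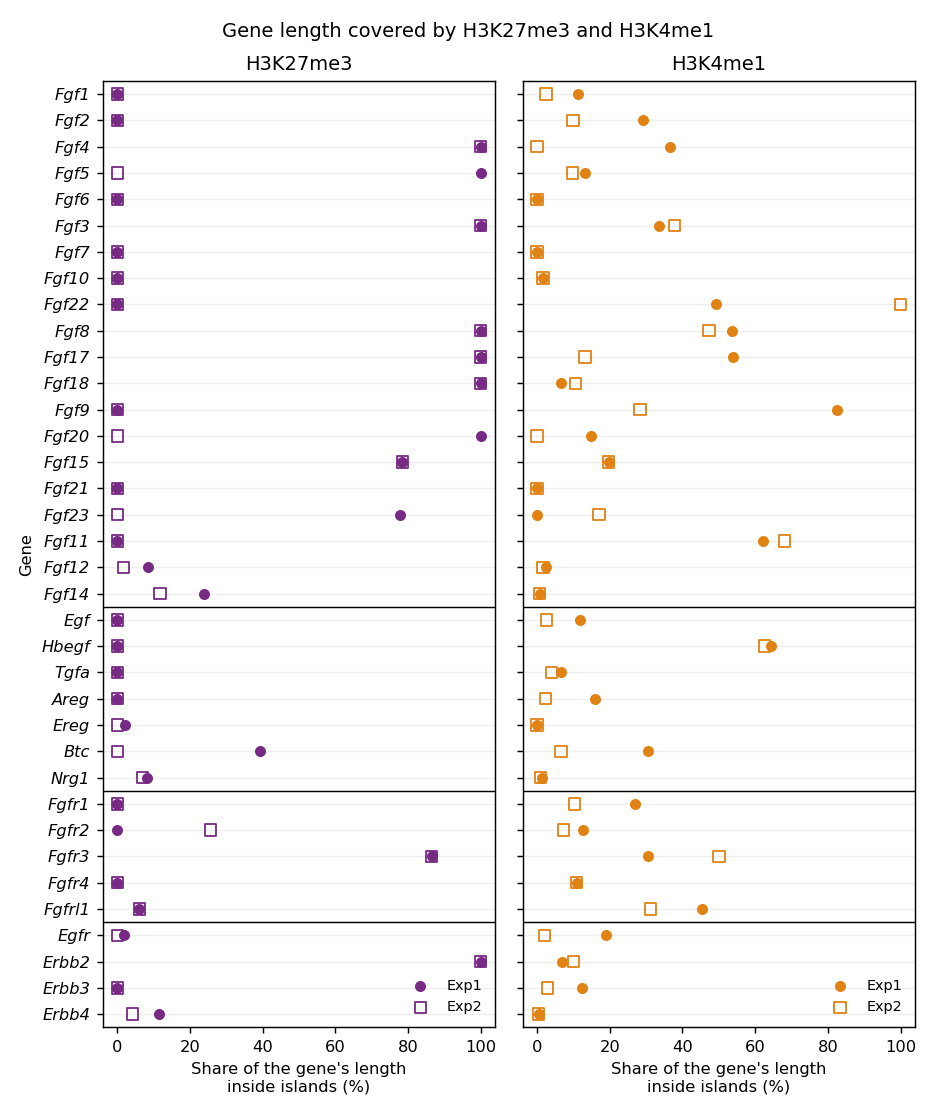
Percent of each gene's length inside H3K27me3 islands (left) and H3K4me1 islands (right), with Exp1 as filled circles and Exp2 as open squares, for the 36 genes ordered as FGF ligands, EGF ligands, FGF receptors and ErbB receptors. For H3K27me3, Fgf5, Fgf20 and Fgf23 stand at 77.7% to 100% in Exp1 and at 0% in Exp2.

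The H3K4me3 islands at these genes mostly had p-values above the median of their lists, some of them close to it. When each list was reduced to the islands whose p-value did not exceed its median, H3K4me3 remained at 2 of 27 ligand genes (7.41%) and 2 of 9 receptor genes (22.2%), against 40.7% of all genes. The 4 genes were Fgf9, Btc, Fgfr1 and Erbb3, and at Erbb3 the kept island is the one shared with Pa2g4. A gene had to pass in both lists, and some of those lost lay near the cut. The share of islands with a lower p-value was 51.5% (Exp1) and 49.7% (Exp2) at Fgf2. It was 51.9% and 39.6% at Fgf11, and 54.3% and 50.3% at Fgfrl1. Others lay far from the cut, such as Areg with 86.4% and 77.1%. For H3K27me3, the same choice left 6 of the 7 ligand genes and 2 of the 3 receptor genes, or 22.2% of each group, against 18.8% of all genes. Both marks at the same end then remained at 0 of the 7 genes that had them, and at 0.95% of all genes. The median width of H3K4me3 islands was 2.7 kb at the 14 ligand genes and 2.8 kb at the 9 receptor genes (means of both experiments), against 3.2 kb at all marked genes. Whether island width accounts for the p-values was not tested.

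The experiments gave the same call for most of the genes, with H3K27me3 differing at more of them than the H3K4 marks. H3K4me3 was found at an end of 25 genes in either experiment and of 23 in both (92.0%, against 95.2% over all genes). The 2 others, Fgf3 and Fgf10, had it in Exp2 alone. H3K4me1 was in both at 25 of 30 genes (83.3%, against 80.6%), and at Fgf1, Fgf4, Fgf14, Fgf20 and Egf in Exp1 alone. H3K27me3 was in both at 10 of 17 genes (58.8%, against 70.7%). It was in Exp1 alone at Fgf5, Fgf20, Fgf23, Ereg, Btc and Egfr, and in Exp2 alone at Fgfr2. H3K9me3 was at Fgf14 in both and at Btc in Exp1 alone.

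Other genes of the pathway carried H3K4me3 more uniformly than the ligand genes. Of 68 such genes, 60 (88.2%) had H3K4me3, 57 (83.8%) H3K4me1, 6 (8.82%) H3K27me3 and 2 (2.94%) H3K9me3, against the 58.6%, 54.6%, 23.3% and 13.4% of all genes given above. Among adaptors and kinases that carry the signal inward, H3K4me3 without H3K27me3 lay at 22 of 23, including Frs2, Frs3, Shc1 and Grb2. All 4 proteases of the ADAM group listed as shedding ligands (Adam9, Adam10, Adam12 and Adam17) had H3K4me3 without H3K27me3. So did 11 of 13 feedback inhibitors, including Spry1, Spry2, Spry4 and Spred1, while Spred3 carried both marks and Spry3 neither. Of 7 target transcription factors, 6 had H3K4me3 alone, among them Etv1, Etv5, Fos and Egr1, and Etv4 had both marks. Among 15 co-receptors and proteoglycans, Sdc1, Sdc2, Sdc3 and Sdc4 had H3K4me3 alone, Gpc5 and Flrt1 had both marks, and Kl and Klb, the Klotho genes that endocrine FGFs need, had neither. The 6 further ligands of the families were as mixed as those above. Nrg2 had H3K4me3 alone, Nrg3 both marks, Fgf16 H3K27me3 alone, and Fgf13, Epgn and Nrg4 neither. With the stronger islands alone, as above, 46 of the 68 pathway genes kept H3K4me3, against 40.7% of all genes.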

How the data were processed

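ChIP-seq of 4 histone marks in Glast+ retinal cells, with 2 experiments a mark, gave 8 lists of islands. Per the labels' protocols, each immunoprecipitation took the chromatin of 25000 cells, libraries were built from 500 pg of DNA, and single-end reads were 50 bp long. The 2 input libraries were not analysed here. Per the submitters' processing notes, the tools were SICER, bedtools 2.17, SAMtools 1.3.1, BWA 0.7.5a and FastQC, and the build was mm10. For SICER, no settings or control file are stated in the labels or file headers. The authors deposited, for each library separately, island positions with a p-value that may be a p or a q value. Some islands have a p-value above 0.05, up to 1081 in the H3K4me1 list of Exp2.

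Gene positions, without strand, and 300-base promoters came from RefSeq tables of GRCm38.p6, read with Python 3.11.15 and pandas 2.3.3. An island marked a gene end when it overlapped the window of 1 kb either side by 1 bp or more. Calls were checked on simulated islands. Members, lists, tests and alternatives were chosen with earlier results of these data known, and all 36 members are named. In each class of pathway genes, up to 4 of the commonest state and up to 4 others are named in list order, except 1 gene that is not reported here. Neighbours are named where they share an island with a member. Alternatives were each experiment alone, either experiment, windows of 500 bp and 2.5 kb, 50% of the window covered, islands up to the median p-value, the transcription start alone, and marks combined within each experiment.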

Additional observations from a re-analysis of the deposited data

How the results depend on the processing

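Windows of 500 bp, windows of 2.5 kb and 50% coverage of the window left the counts of ligand and receptor genes within 1.5 times those reported, and changed the state of 0, 2 and 2 of the 36 genes (Fgf23 and Nrg1, then Fgf22 and Fgfr2). With a mark in either experiment, H3K27me3 was at 12 ligand and 5 receptor genes, both marks together at 7 and 5, and H3K9me3 at 2 ligand genes, while the shares of all genes were 33.0%, 10.8% and 18.2%. Leaving out each experiment in turn gave 7 to 12 ligand genes with H3K27me3 (27.1% of all genes without Exp1 and 29.3% without Exp2) and 1 to 2 with H3K9me3 (14.8% and 16.7%), and the state of 3 genes changed without Exp1 and of 6 without Exp2. Restricting each list to islands whose p-value did not exceed its median left H3K4me3 at 2 ligand and 2 receptor genes (40.7% of all genes). H3K4me1 was left at 9 of 27 ligand genes, near its share of all genes (32.3%), and at 7 of 9 receptor genes. The pair of marks was left at 0 ligand and 0 receptor genes (0.95% of all genes), and the state of 20 genes changed. With the transcription start alone, which could be tried on 19 ligand genes and left out Fgf8 and Fgf15, 1 had both marks, against 2 of the same 19 at gene ends, and 0 had H3K9me3, against 1. The gene lost was Fgf14, whose annotated start lies inside the gene, away from the marked end. Of the genes with a start, Fgf4, Fgf6, Fgf7, Fgf9 and Fgf21 kept their state under all of these alternatives. Fgf1, Fgfr1 and Erbb3, which have no promoter entry, kept theirs under all but the start, which could not be tried on them. With islands up to the median p-value, Erbb3 kept its state only through the island at its lower end, which is shared with Pa2g4. With marks combined within each experiment first (replicate block), both marks stayed at 4 ligand and 3 receptor genes. The alternatives for island width, for agreement between experiments and for coverage in either experiment were added after seeing the data. They gave median widths of 2.4 to 3.05 kb against 2.8 kb, 15 to 18 single-experiment calls of 144 against 15, and 11 genes with H3K27me3 over at least 50% of their length against 8. Depth is unknown, so the absence of an island is not shown to be absence of the mark.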

Other observations

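H3K4me3 was found at some starts with few CpG and was missing from Fgf4, a start with many. Fgfr2 held 4 CpG in its promoter entry, and Fgf11 and Btc 5 each, against a median of 22 CpG over all starts with H3K4me3 alone. All 3 had H3K4me3 within 1 kb of the start in both experiments. At Fgf11 and Btc the islands covered the promoter entry. The annotated start of Fgf11 lies 0.664 kb inside the gene, so CpG at its outer end were not counted. The island there, 6 kb (Exp1) and 4.8 kb (Exp2) wide, ran past the upper end of Fgf11. Islands at the ends of Fgf11 also touched Chrnb1 and Tmem102. At Fgfr2 the island (130264801 to 130266600 in both) ended before the entry, and the call was lost when 50% of the window had to be covered. Fgf4, with 28 CpG, had H3K27me3 and no H3K4me3 in either experiment.

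At the upper end of Fgf14, the H3K27me3 island (124650001 to 124805000) and the H3K9me3 island (124653001 to 124803000) had nearly the same borders, and each was the same in both experiments. At Btc, the H3K27me3 island (91385001 to 91425000) and the H3K9me3 island (91386001 to 91425000) also had nearly the same borders, in Exp1 alone. The borders are set on grids of 5000 and 3000 bp.

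Of the 6 genes with H3K27me3 at an end in Exp1 alone, Fgf5 and Fgf20 had islands with deposited p-values of 4.58e-38 and 1.24e-25, both below the median of that list (2.72e-25). Ereg had 7.54e-16, Fgf23 2.63e-07, Egfr 0.00729 and Btc 0.0318, all above it.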
